A study of Mus musculus with 2 samples.

Results

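CTCF at the promoters of the cytosolic ribosomal protein genes was measured in embryonic mouse limb. The genes are those of GENCODE M21 (mm10) that code for protein and carry the symbol Rpl or Rps followed by a digit, together with Rplp0, Rplp1, Rplp2 and Rpsa. The S6 kinase genes, whose symbols begin with Rps6k, and symbols that mark pseudogenes were left out. The rule gave 86 genes of 21938 protein-coding genes on the main chromosomes, and it used no measured value. They comprise 31 genes for proteins of the small (40S) subunit, 46 for proteins of the large (60S) subunit and 9 with paralog or other symbols. The samples were limbs of embryos of the B6NCrl strain at 14.5 days, both sexes mixed, in 1 group with no treatment, mutation or control group. Chromatin bound by CTCF was precipitated with an antibody and sequenced in 2 libraries, replicate 1 and replicate 2. Per the labels, the limbs were pulverised and pooled from several dissections, so the spread between the libraries may be technical, and the tissue is a mixture of limb cell types.

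The ribosome is built from ribosomal RNA and a set of ribosomal proteins, most of which are encoded by a single active gene scattered among many processed pseudogene copies. These genes are among the most highly transcribed in growing cells, and their mRNAs begin with a pyrimidine-rich tract that ties their translation to growth signals. CTCF is a zinc finger protein that binds a long, directional motif, and together with cohesin it anchors chromatin loops. It also binds at many promoters. Each value below is the signal that the authors' peak list gives for a peak, a measure of enrichment with no stated unit, and a position is that of the summit relative to the most upstream annotated transcription start site (TSS) of the gene, with negative numbers upstream.

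The strongest sites at these genes lay just upstream of the start, and their sequences are shown because the position and the direction of the CTCF motif are compared below. The 200 bases upstream of the first TSS are given for 4 genes with no annotated untranslated region in that stretch, read 5′ to 3′ in the direction of the gene (GRCm38, the assembly of mm10). Capitals mark the 19-base match to the motif learned from these peaks, whose consensus is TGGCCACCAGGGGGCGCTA.
Rplp0 (chr5:115559267-115559466, + strand): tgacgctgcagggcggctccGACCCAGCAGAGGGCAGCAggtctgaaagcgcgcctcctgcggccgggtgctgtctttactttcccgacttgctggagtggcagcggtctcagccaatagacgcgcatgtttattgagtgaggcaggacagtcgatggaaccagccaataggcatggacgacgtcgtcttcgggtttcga
Rpl5 (chr5:107900302-107900501, + strand): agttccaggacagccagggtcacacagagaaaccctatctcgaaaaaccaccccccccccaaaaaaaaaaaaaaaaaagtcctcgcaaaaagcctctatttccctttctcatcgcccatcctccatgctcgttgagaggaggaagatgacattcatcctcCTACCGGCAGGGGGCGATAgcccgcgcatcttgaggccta
Rps3a1 (chr3:86142703-86142902, - strand): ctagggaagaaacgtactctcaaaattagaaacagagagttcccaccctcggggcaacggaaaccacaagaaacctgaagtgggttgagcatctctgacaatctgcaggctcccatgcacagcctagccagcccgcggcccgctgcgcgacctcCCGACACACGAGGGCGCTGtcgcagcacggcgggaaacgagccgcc
Rpl11 (chr4:136053429-136053628, - strand): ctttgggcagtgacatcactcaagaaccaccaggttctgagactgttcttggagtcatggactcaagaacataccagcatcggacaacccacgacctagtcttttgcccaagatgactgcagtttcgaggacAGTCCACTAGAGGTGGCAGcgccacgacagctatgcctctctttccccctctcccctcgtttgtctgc
The centre of the match lay at −171 bp in Rplp0, −37 bp in Rps3a1 and −31 bp in Rpl5. It lay at −59 bp in Rpl11. All 4 matches read in the direction of the gene.

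The matches at 5 further strong sites are given as the motif reads, again in capitals throughout since each is the 19-base match itself. The first 4 lie on the strand of their gene, and the last, at Rps24, on the opposite strand.
Rpl26 (chr11:68901462-68901480, + strand): GAGCCGCTAGATGTCGCTA
Rpl36 (chr17:56613325-56613343, + strand): CGGCCACCAGAGGTCGCCC
Rpl10a (chr17:28328446-28328464, + strand): CAGCCGCGTGGTGGCGCCC
Rpl38 (chr11:114668455-114668473, + strand): GAACCAGAAGAGGGCAGGG
Rps24 (chr14:24487124-24487142, - strand): GAGCCGCTAGATGGCGATC
The centres of these matches lay at −112 bp in Rpl26, −82 bp in Rpl36, −16 bp in Rpl10a and −60 bp in Rpl38.

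An optimal CTCF summit lay within 1 kb of the first TSS in 42 of the 86 ribosomal protein genes, 48.8% (exact 95% binomial interval 37.9% to 59.9%, which covers counting error only). The share was 26.0% over the 21852 other protein-coding genes. With any annotated TSS in place of the first, 45 ribosomal protein genes (52.3%) had a summit within 1 kb, against 33.3% of the other genes. Both shares of the ribosomal genes were above those of the other genes. No test was made, because there is 1 group and genes are not replicates.

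The shares were also read by the base composition of the promoters. The other genes with a CpG-rich promoter (observed over expected CpG of at least 0.6 and GC of at least 50% from 250 bp before to 50 bp after the first TSS, a split chosen after the data were seen) had a summit in 41.1% of 8997 cases. The 61 ribosomal protein genes with such a promoter had one in 47.5% (29 genes; exact interval 34.6% to 60.7%), a range that includes the share of the other CpG-rich genes. Among genes without a CpG-rich promoter the shares were 52.0% of 25 ribosomal protein genes (exact interval 31.3% to 72.2%) and 15.4% of 12855 others. These groups were not alike in composition, with a median observed over expected CpG of 0.54 in the ribosomal genes and 0.25 in the others. The gap to other genes was thus small among CpG-rich promoters and wide among the rest. The part of base composition in the difference was not tested.

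**Figure D1:**
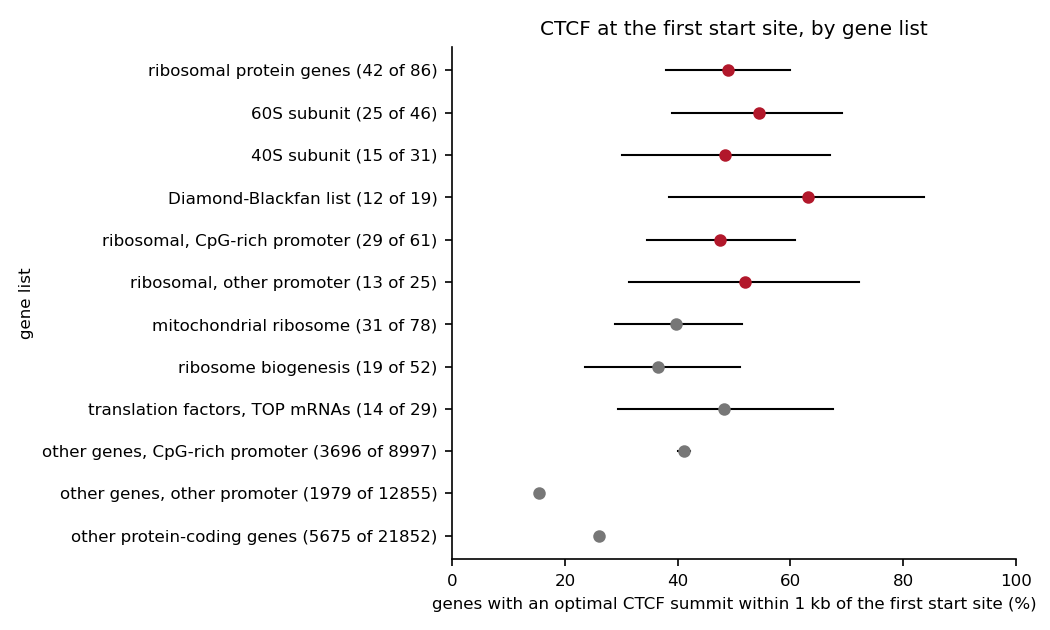
Share of genes with an optimal CTCF summit within 1 kb of the first TSS, by gene list (rows), as points with exact 95% binomial intervals over genes (lines), with the number of genes behind each share beside its name. The ribosomal protein genes, in red, stand at 48.8% and their 60S and 40S parts at 54.3% and 48.4%, the other genes with a CpG-rich promoter at 41.1% and all other protein-coding genes at 26.0%.

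The peaks at ribosomal protein genes were also strong ones. Their median signal in the optimal list was 92.6 (quartiles 42.1 and 257.8, range 16.0 to 384.3), against 53.3 at the 5675 other genes with a summit. The strongest 10% of all optimal peaks, those with a signal of at least 238.5, included the peaks of 12 ribosomal protein genes, or 14.0% of the 86. They included peaks at 2.35% of the other genes and at 3.55% of the other genes with a CpG-rich promoter. The spread within the ribosomal genes was wide, with 24.0 times as much signal at the strongest promoter peak as at the weakest.

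The 60S genes included the 2 strongest sites. Rplp0, which codes for the base of the ribosomal stalk that recruits translation factors, had a signal of 384.3 in the optimal list, 211.5 in replicate 1 and 177.2 in replicate 2. Its summit lay at −152 bp. Rpl5 had 379.4 in the optimal list, 200.4 in replicate 1 and 181.7 in replicate 2, at −21 bp. Rpl11 had 324.3, with 168.5 and 154.8 in the replicates, at −65 bp. The products of Rpl5 and Rpl11 bind 5S ribosomal RNA and, when ribosome assembly is disturbed, the p53 regulator Mdm2. Both genes were thus high in both libraries.

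Rpl26 (367.1) and Rpl36 (341.8) also had strong sites among the 60S genes. Their summits lay at −115 and −75 bp. Rpl10a had 263.1 at −7 bp, Rpl27 226.8 at −145 bp, Rpl13a 219.2 at −339 bp and Rpl37 199.2 at −287 bp. Rpl38 is known in the mouse for a mutation that alters axial skeletal patterning and the translation of Hox mRNAs. It had 259.7 in the optimal list, 127.7 in replicate 1 and 132.3 in replicate 2, at −51 bp, and was the only one of the 86 genes with 3 optimal summits within 1 kb of its first TSS. In all, 25 of the 46 genes of the 60S subunit had a summit at the first TSS (54.3%), with a median signal of 116.3.

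Among the 40S genes, Rps3a1 had the strongest site, with 371.1 in the optimal list, 198.9 in replicate 1 and 172.0 in replicate 2, at −38 bp. Rps24 had 267.9 at 12 bp downstream of its first TSS, but that TSS belongs to a transcript that starts 3593 bp upstream of the principal one, and the same peak lies within 1 kb of the start of Polr3a, which codes for a subunit of RNA polymerase III. Of the 31 genes of the 40S subunit 15 had a summit at the first TSS (48.4%), with a median signal of 76.5. The shares of the subunits lay within each other's intervals.

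**Figure D2:**
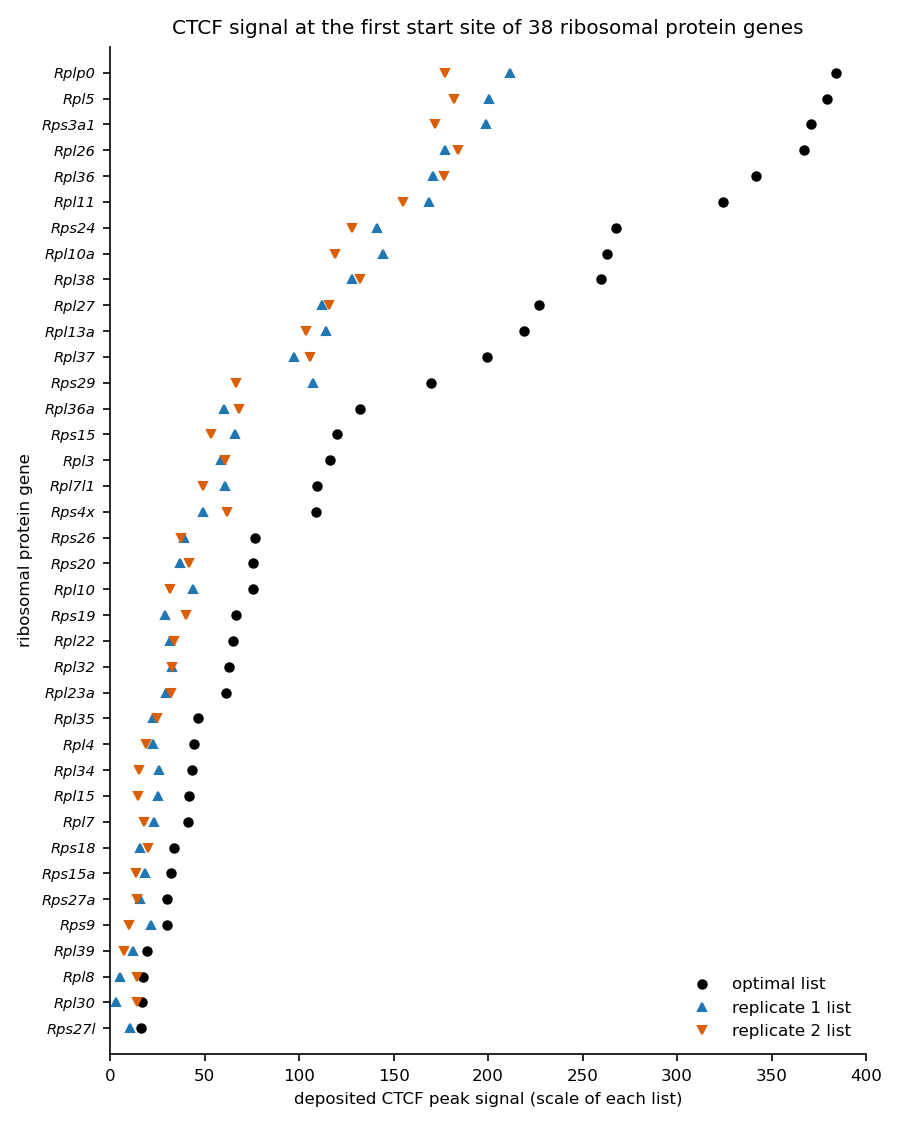
Deposited CTCF signal (horizontal axis, on the scale of each list) at the first TSS of 38 of the 42 ribosomal protein genes with an optimal summit there (rows, ordered by optimal signal). Black circles are the optimal list and triangles the 2 replicate lists. The replicate values follow a similar but not identical order, from Rplp0 (211.5 and 177.2) down to the weakest sites. In replicate 2 the highest value is that of Rpl26 (184.2). At the weak end Rpl30 has 3.20 and 13.9, and Rps27l has a value in replicate 1 alone.

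The weakest sites were less even between the libraries. Rps9 had an optimal signal of 30.1, Rpl39 19.7, Rpl8 17.1, Rpl30 16.7 and Rps27l, a paralog of Rps27 induced by p53, 16.0. The first 4 of these were the only ones of the 42 peaks with no summit at the same base in the stricter conservative list. Summits at nearby bases were not counted as the same peak. In that list 41 of the 86 genes had a summit within 1 kb of the first TSS. The 3 largest ratios of replicate 1 to replicate 2 were 2.13 at Rps9, 1.72 at Rpl15 and 1.71 at Rpl34. The 3 smallest were 0.231 at Rpl30, 0.364 at Rpl8 and 0.723 at Rps19, the gene most often mutated in Diamond-Blackfan anaemia. Over the 41 peaks matched in both libraries the median ratio was 1.09, and over all 48703 matched optimal peaks it was 1.06, so the tilt towards replicate 1 was about that of the whole list.

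Position and strength went together. Of the 42 summits 29 (69.0%) lay upstream of the first TSS, against 55.3% at the other genes, and 19 (45.2%) lay in the 200 bp just upstream, against 28.4%. Within the CpG-rich promoters the shares in those 200 bp were 48.3% and 30.6%. Upstream of the first TSS lay 73.7% of the summits of ribosome biogenesis genes and 67.7% of those of mitochondrial ribosomal protein genes. At translation factor genes 7 of 14 did. The lean to the upstream side was thus not particular to the ribosomal protein genes. In the 200 bp just upstream the shares of these lists were 31.6%, 38.7% and 28.6%, each below the 45.2%. The 19 ribosomal peaks in those 200 bp had a median signal of 251.9, and the peaks of other genes in the same stretch 75.7. By contrast, the 13 summits at or downstream of the TSS had a median signal of 41.7, close to the 44.9 of the other genes there. The difference in signal from other promoters was thus found upstream of the start. The median distance from the first TSS irrespective of side was 218 bp, against 249 bp.

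Both parts of those 200 bp had strong peaks. From 200 to 101 bp upstream there were 7 ribosomal peaks, with a median signal of 226.8, against 66.7 at other genes. In the last 100 bp before the TSS there were 12 ribosomal peaks (28.6% of the 42, against 17.1% at other genes), with signals from 16.0 to 379.4 and a median of 261.4, against a median of 81.4. In the first 200 bp after the TSS there was 1 peak, that of Rps24 (2.38%, against 15.2%). From 201 to 500 bp downstream there were 8 peaks, with a median signal of 32.0, against 44.4.

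**Figure D3:**
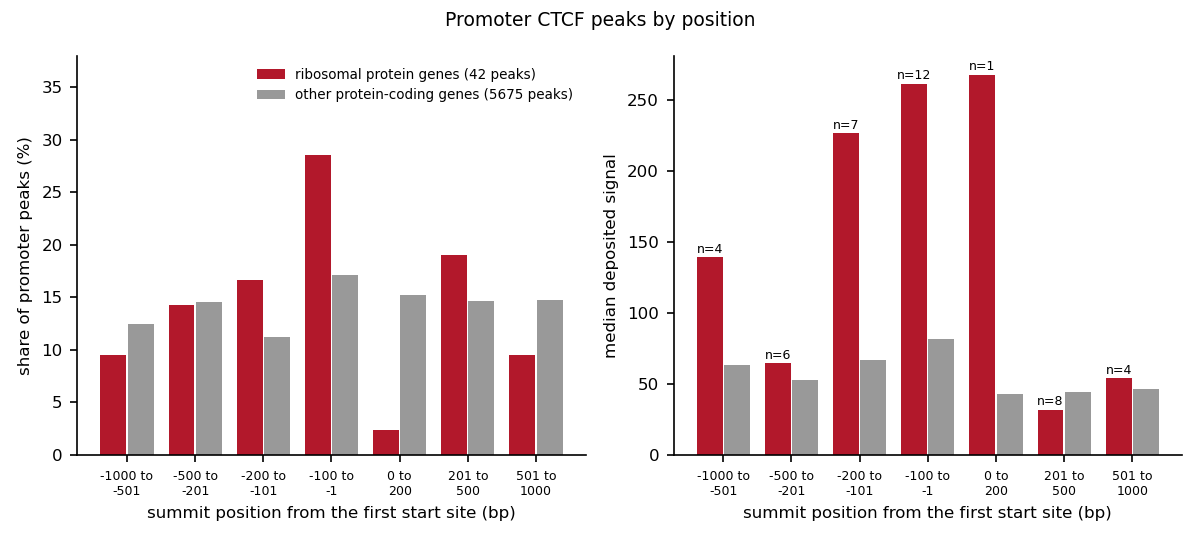
Promoter CTCF peaks by position of the summit from the first TSS (horizontal axes, bp): share of peaks in each interval (left, percent) and median deposited signal (right), for the 42 peaks of ribosomal protein genes (red, with the number of peaks above each bar) and the 5675 of other protein-coding genes (grey). The interval from 100 to 1 bp upstream holds 28.6% of the ribosomal peaks with a median signal of 261.4, and the interval from 0 to 200 bp holds 1 ribosomal peak.

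How the motif share of the ribosomal peaks compared with other promoters depended on the score asked for, and close to the start most matches lay on the strand of the gene. A motif match within 50 bp of the summit, at a score reached by 5% of flanking windows, was found at 26 of the 42 peaks (61.9%), against 63.0% at other promoters. At the stricter score reached by 1% of flanks, 21 of the 42 ribosomal peaks and 35.1% of the others had one. Peaks with a match had a median signal of 194.4 and those without one 37.4, against 76.9 and 33.8 at other genes. The ribosomal peaks without a match were thus about as weak as those elsewhere, and the gap in signal to all other genes lay among peaks with a match. Similar medians were seen at mitochondrial ribosomal protein genes (194.2 with a match and 27.8 without) and biogenesis genes (204.9 and 31.0). At translation factor genes they were 116.3 and 22.0. This contrast was thus not particular to the ribosomal protein genes.

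Of the 26 matches, 18 (69.2%) lay on the strand of the gene, against 57.0% at other genes. From 200 to 101 bp upstream, 3 of the 7 ribosomal peaks had a match (42.9%, against 60.6% at other genes). In the last 100 bp before the TSS 11 of the 12 ribosomal peaks had a match (91.7%, against 66.9%). Of these 11 matches, 10 (90.9%) lay on the strand of the gene. The other genes also showed a lean in that interval, with 71.1% of 651 matches on the strand of the gene, against 48.8% from 501 to 1000 bp downstream. The exception among the 11 was Rpl10, an X-linked gene for a protein that joins the 60S subunit late in its assembly, whose peak of 75.3 lay at −34 bp. From 1000 to 501 bp upstream, 1 of 4 ribosomal matches, that of Rps29, lay on the strand of the gene. The share at other genes there was 53.1% of 540 matches, and 4 matches are too few to compare with it.

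**Figure D4:**
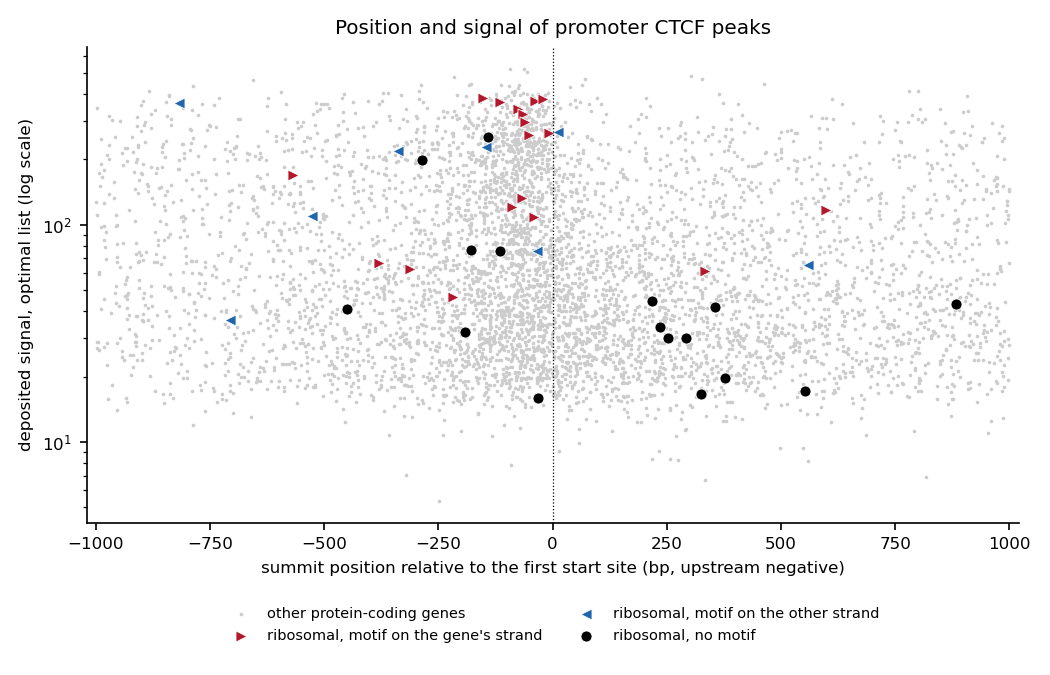
Summit position from the first TSS (horizontal axis, bp) and deposited signal in the optimal list (vertical axis, log scale) of each promoter CTCF peak. Red and blue triangles are ribosomal protein genes with a motif match on the strand of the gene or on the other strand, black circles those without a match, and grey dots the 5675 other protein-coding genes; the red triangles within 100 bp upstream of the start have signals from 108.6 to 379.4.

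Within the transcribed part, 6 of the 42 summits lay in an intron, 5 in an annotated untranslated region, 1 in a coding exon (Rpl8) and 1 in an exon of a transcript with no coding sequence (Rps24). Of the 42 summits, 8 also lay within 1 kb of the start of another protein-coding gene. These were Rps24 with Polr3a, Rpl3 with Syngr1, Rpl35 with Arpc5l, Rpl4 with Zwilch, Rpl15 with Nkiras1, Rpl7 with Rdh10, Rps18 with Vps52 and Rps27a with Clhc1. The Rpl3 peak (116.3, at 599 bp) belongs to a first TSS 8462 bp upstream of the principal one. At these 8 genes the peak cannot be assigned to the ribosomal gene rather than to its neighbour.

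The 3 genes with a summit at another TSS only were Rps14, Rpl18 and Rpl24. The Rps14 peak had a signal of 195.8, with 95.3 in replicate 1 and 103.9 in replicate 2. It lay 27242 bp downstream of the most upstream annotated start of that gene and at −256 bp from another start. The Rpl24 peak (78.3) lay at −641 bp from its other start, and the Rpl18 peak (37.9) at 372 bp. The choice of start therefore matters for Rps14. Its peak lay before a start, but outside the 200 bp just upstream that are described above. The first principal start of Rps14 lies 51 bp downstream of its first TSS, so this other start is not that one.

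The threshold of 1 kb split a continuous range of distances. Just inside it was Rpl34 at 884 bp (signal 43.3). Just outside it were Rpl7a at −1232 bp (35.6), Rpl14 at −1268 bp (47.2) and Rpl24 at −1549 bp (60.3).

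The other 44 genes had no optimal summit within 1 kb of the first TSS. Their nearest optimal summit lay at a median of 6114 bp, against 14780 bp for the 16177 other genes without a promoter summit, and within 10 kb in 34 of the 44. In the full pooled list, which runs far below the optimal one, 35 of the 44 (79.5%) had a summit at the first TSS with a signal between 5.61 and 19.3. The share was 48.8% over the 16177 other genes without a promoter summit and 82.1% over the 5301 of them with a CpG-rich promoter. Rplp1 and Rplp2 code for the flexible arms of the stalk on Rplp0. Rplp2 had a pooled signal of 15.04 at its first TSS, and Rplp1 had no pooled summit there. Their nearest optimal summits lay at −3971 and 3851 bp. Rpsa, which also serves as a laminin receptor and is known for its role in congenital loss of the spleen, had its nearest summit at 13148 bp (signal 275.4). The farthest nearest summits were those of Rpl39l at −81309 bp, Rps7 at 46413 bp, Rpl10l at −24426 bp, Rps6 at −17044 bp and Rpl35a at 14663 bp. Rps6 codes for the protein that S6 kinases phosphorylate.

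Of the 9 paralogs and other symbols 2 had a site (22.2%, exact interval 2.81% to 60.01%), a share near the 26.0% of other protein-coding genes. Rpl7l1 had a signal of 109.5 at −527 bp and Rps27l 16.0 at −31 bp. Rpl3l, the form of Rpl3 found in heart and skeletal muscle, Rpl10l and Rpl39l, which are known from the testis, and Rpl22l1, Rpl36al, Rps27rt and Rps19bp1 had none. Without these 9, the share was 51.9% (40 of 77).

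Other groupings within the family gave small numbers. Of the 19 genes on a list of those mutated in Diamond-Blackfan anaemia, a failure of red cell production with limb and thumb anomalies in some patients, 12 (63.2%) had a summit at the first TSS, with a median signal of 198.2. Of the 67 outside the list 30 (44.8%) had one. All 4 X-linked genes, Rpl10, Rpl36a, Rpl39 and Rps4x, had one. Genes with a snoRNA gene inside, where small RNAs that guide ribosomal RNA modification are cut from the introns, had one in 14 of 30 cases and the others in 28 of 56. Of the 9 genes with a divergent protein-coding neighbour 2 had a summit, whereas at other genes such a neighbour went with a higher share (39.5% against 25.0%). The intervals of these small groups are wide.

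Genes that work with the ribosome were read in the same way. Of the 78 mitochondrial ribosomal protein genes 31 (39.7%) had a summit at the first TSS, with a median signal of 61.6, and the strongest were Mrpl34 (355.1 at −197 bp), Mrps33 (340.1 at −30 bp) and Mrpl17 (310.1 at −164 bp). Of 52 ribosome biogenesis genes 19 (36.5%) had one, with a median of 130.4, led by Bms1 (304.3), Nop10 (286.1) and Nop14 (240.0). Of 29 translation factor and other growth-regulated mRNA genes 14 (48.3%) had one, with a median of 32.2, led by Eif3g (294.5), Eif3f (271.2) and Eif2s3x (143.8). Neither Fau, which codes for a ribosomal protein fused to a ubiquitin-like one, nor Rack1, which codes for a protein of the 40S subunit, had one. At any TSS the shares were 43.6% of the mitochondrial ribosomal protein genes, 51.9% of the biogenesis genes and 58.6% of the translation factor genes, beside 52.3% of the ribosomal protein genes. Similar shares were thus also seen in these lists, and the median signal was lower than at the ribosomal protein genes in the mitochondrial and translation factor lists and higher in the biogenesis list.

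The surroundings of the ribosomal protein genes held more CTCF sites than those of all other genes. Among the lists given here, the translation factor genes came nearest to them. A median of 11 optimal summits lay within 100 kb of the first TSS, against 6 for other genes and 8 for those with a CpG-rich promoter. It was 10 for the translation factor list and 8 for each of the mitochondrial ribosomal protein and biogenesis lists. For 3 ribosome-associated genes outside the symbol rule it was 18, a median over very few genes. The nearest summit lay at a median of 1250 bp, against 7489 bp for other genes and 2370 bp for those with a CpG-rich promoter. In the lists it lay at 1429 bp (translation factors), 2268.5 bp (mitochondrial ribosomal protein) and 3736.5 bp (biogenesis). This distance partly restates the share with a summit within 1 kb. The promoters, from 250 bp before to 50 bp after the first TSS, had a median observed over expected CpG of 0.81, against 0.52 in other genes and 0.83 in those with a CpG-rich promoter. The ETS-type word CCGGAAG was found on either strand in 26.7% of them, against 10.7% of other promoters, AAGATGG, a YY1-type word, in 12.8% against 6.19%, and GGGCGG, an Sp1-type word, in 46.5% against 43.0%. In other CpG-rich promoters the shares were 19.7%, 6.94% and 76.0% in the same order. CCGGAAG was more frequent still in the lists of mitochondrial ribosomal protein (34.6%), biogenesis (40.4%) and translation factor genes (34.5%), and AAGATGG in the first and the last of these (16.7% and 17.2%). A word is a match of letters and not a bound site. Ribosomal protein genes had a CTCF summit in 12 of 23 cases with CCGGAAG and in 30 of 63 without it, shares of 52.2% and 47.6%. At other genes the shares were 38.6% with it and 24.5% without it, and at other CpG-rich promoters 42.1% and 40.8%.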

How the data were processed

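CTCF ChIP-seq peak lists of 2 limb libraries were analysed. Per the labels, the lists are on mm10; per the deposited notes on the files, a replicate list came from that library's alignments, the pooled list from both, and the optimal and conservative lists (IDR, irreproducible discovery rate) from these. Aligner, peak caller, control and thresholds: not given in the sources used here. Signal at a peak was deposited by the authors, follows each list's own scale and was taken as it stands. The lists hold no read counts, so read depth is unknown.

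The optimal list (49970 peaks, 49959 on the main chromosomes) was the main set. Summits were set against GENCODE M21 starts, and where several lay within 1 kb the one with the highest signal was taken. For each peak, the closest summit of a replicate's full list (300000 peaks), at most 100 bp away, gave the replicate signal. A 19-bp motif was learned in 10 rounds from the 1000 strongest peaks of odd-numbered autosomes, 5 of them promoter peaks of ribosomal protein genes; on the other autosomes and X, 83.4% of 23162 peaks had a match at the score 5% of flanking windows reach. Words were sought on both strands. Promoter sequence came from GRCm38.p6. The matching and motif steps were tested on simulated data.

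The members and lists were chosen with earlier results of these data known. Rps4l, listed as a paralog, is not protein-coding in M21. Genes named are the 15 strongest and 5 weakest promoter peaks, members with a peak at another TSS only, the 3 on each side of the 1 kb limit, the 5 farthest from a summit, the 3 largest and 3 smallest replicate ratios, the stalk genes, Rpsa, Rpl38, the paralogs and the 3 strongest of each comparison list; further genes were named after their values were seen. Some items that the rule takes are not reported here, though they stay in the counts and medians. Alternatives were other lists, promoter widths, starts, overlap rules and match scores. Python 3.11.15, pandas 2.3.3, NumPy 2.4.6 and SciPy 1.17.1 were used.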

Additional observations from a re-analysis of the deposited data

How the results depend on the processing

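The shares kept their order: the share of ribosomal protein genes with a summit at the first TSS exceeded that of other genes under all 9 alternatives, from 32.6% against 12.2% (strongest 50% of the optimal peaks) to 55.8% against 32.3% (2 kb promoters). With those strongest 50%, fewer peaks by construction, the share at any TSS was 34.9% (other genes 17.1%), the motif share 85.7% (80.1%), the median signal 209.2 (132.5) and the median distance 128 bp (219 bp). The median signal was 108.6 in the conservative list (other genes 54.4), 75.3 with 500 bp promoters (51.5) and also 75.3 with 2 kb promoters (58.6), and 75.9 with the first principal transcript (52.8), so it stayed above that of other genes under each. The median distance was 152 bp with 500 bp promoters (other genes 152 bp), 269.5 bp with 2 kb promoters (417.5 bp) and 185 bp with the first principal transcript (255 bp). From the strongest 49970 peaks of 1 library alone, on the scale of its list, the median signal ranged from 49.3 to 53.8 (other genes 25.7 and 27.1), the median distance from 163 to 208 bp, the share at the first TSS from 46.5% to 47.7% and the share at any TSS from 51.2% to 52.3%. The motif share exceeded that of other genes under 7 of 10 alternatives and did not in the main setting. Matching within 50 or 200 bp gave 37 and 42 peaks found in both libraries, against 41. No paired analysis was possible because there is 1 group and no comparison between groups. Read depth is unknown, so it cannot be said which weaker sites the libraries could have missed.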
